A study of Mus musculus with 4 samples.

Results

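The miR-135 family comprises miR-135a, made from a pair of hairpins, and miR-135b, made from a single one. A miRNA hairpin is cut into a duplex whose 5p and 3p arms can each be loaded into an Argonaute protein, where bases 2 to 8 of the arm, the seed, select the messenger RNAs it represses. The 5p arms are the usual guide strands of this family and the 3p arms the usual passengers. In serotonergic neurons miR-135a is known to repress the serotonin transporter Slc6a4 and the receptor Htr1a, in cortical neurons it promotes axon growth through repression of Klf4, and both miR-135a and miR-135b repress Apc, an inhibitor of Wnt signaling. The members were taken by name from the deposited count tables as mmu-miR-135a-5p, mmu-miR-135a-1-3p, mmu-miR-135a-2-3p, mmu-miR-135b-5p and mmu-miR-135b-3p (mmu, for mouse, is left out below), 5 of the 1966 listed mature miRNA.

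Small RNA was sequenced from primary cortical neurons of WT and APP/PS1 mutant (TgAD) mouse embryos, with 2 libraries per genotype. Cortex was taken from E16.5 embryos, and the cells stayed 5 days in culture in serum-free differentiation medium with no treatment. TgAD neurons carry the APPswe and PSEN1dE9 transgenes on a B6C3 background, that is, humanized APP with the Swedish familial mutations and a mutant human presenilin 1. The promoter of both is that of the mouse prion gene, with highest activity in neurons. WT neurons carry neither. A library stands for the culture of 1 embryo, so that p-values measure the spread between 2 cultures per genotype. The question put to these libraries was which miRNA differ between TgAD and WT neurons.

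The libraries held between 2070204 and 4811010 reads on mature miRNA, and the family took between 0.259% and 0.419% of them. A count of 3 reads, taken as the floor, corresponds to between 0.746 and 1.28 CPM, the reads scaled to TMM-adjusted library size, and such floors cover counting error only. Among neuronal markers miR-128-3p was abundant, but miR-9-5p had 0 reads and miR-124-3p at most 7 reads in every library. The summed level of the 6 neuronal markers was 21123 and 35039 CPM in WT and 86105 and 62008 CPM in TgAD libraries, most of it miR-128-3p. Of the 4 tested neuronal markers only miR-128-3p was called, miR-138-5p was lower in both TgAD libraries (1439 ± 303 CPM in WT and 932 ± 398 CPM in TgAD, SD, n = 2 each) without passing, and miR-218-5p and miR-129-5p overlapped between genotypes. Among the neuronal markers miR-9-5p is encoded at 3 loci that share 33 bases, and miR-129-5p at 2 that share 26. miR-128-3p, miR-138-5p and miR-218-5p have 2 loci each, which share 23, 24 and 22 bases. How reads with several placements were counted is not known, so these levels cannot be read as the neuronal content of the cultures. Both oligodendrocyte markers were at 0 reads in every library, but miR-219a-5p among them is encoded at 2 loci that share 22 bases. The red blood cell marker miR-451a fell in TgAD neurons, with a summed level of its 2-member list of 1310 and 1331 CPM in WT against 957 and 646 CPM in TgAD libraries. The 3 myeloid markers together held between 9.96 and 14.7 CPM, and the 4 endothelial and mural markers between 718 and 901 CPM, with 2 of those 4 at 0 reads. The part of cell composition in the results on miR-135 was not tested.

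A second deposited table holds normalized counts, and its column names went against the count tables. Over its 674 miRNA the column named WT_1 equaled the counts of TgAD replicate 1, the column WT_2 those of WT replicate 1 and the column TR_1 those of TgAD replicate 2, each for 100% of the values. The column TR_2 equaled no count table, with at most 4.45% of its values the same. Small RNA counts hold no measure of the transgenes, so the genotype of a library could not be checked from them. The groups below follow the sample labels, and the values under the names of the normalized table are given where they change a result.

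RefSeq (GRCm38.p6) gave mature sequences for 4 of the 5 members, all but miR-135b-5p. They are shown with the seed in capitals, because the guide and passenger arms read different seeds, while miR-135b-5p is known to share the seed of miR-135a-5p.
miR-135a-5p: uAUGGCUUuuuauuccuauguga
miR-135a-1-3p: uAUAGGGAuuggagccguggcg
miR-135a-2-3p: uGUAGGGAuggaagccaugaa
miR-135b-3p: aUGUAGGGcuaaaagccauggg
Each of the 4 seeds belonged to 1 name in the RefSeq table, a table that lacks miR-135b-5p. The 3 passenger arms hold the run uaggg in common, but it sits 1 base further from the 5′ end in miR-135b-3p than in miR-135a-2-3p, which moves the seed. The mature arms are 21 to 23 bases long, so that CPM of different members can be compared without division by length, although preferences of the library chemistry between sequences are not corrected.

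In GENCODE M21, an annotation of GRCm38, the Mir135a-1 hairpin lies at chr9:106154124-106154213 on the plus strand. It falls in an intron of the noncoding gene D030055H07Rik, and on the opposite strand in an exon of Glyctk, which encodes glycerate kinase, where both spanning transcripts have their UTR. Mir135a-2 lies at chr10:92072086-92072185 on the minus strand, in an intron of Rmst, a long noncoding RNA known for a role in neurogenesis. Mir135b lies at chr1:132198088-132198184 on the plus strand, in an intron of Lemd1 and of a further protein-coding gene on that strand, AC124108.1. The sequence of miR-135a-5p is the same at Mir135a-1 and Mir135a-2, as the windows below show with the mature arm in capitals and 3 flanking bases on each side. They are shown because a read can be given to 1 of these loci only if it runs into a flanking base that differs.
Mir135a-1, chr9:106154137-106154165, plus strand: cucUAUGGCUUUUUAUUCCUAUGUGAuuc
Mir135a-2, chr10:92072138-92072166, minus strand: cuuUAUGGCUUUUUAUUCCUAUGUGAucg
The run shared by both loci is 24 bases long, the mature arm plus 1 base.

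The guide strand of miR-135a was close to absent from the counts. miR-135a-5p had 1 read in each WT library, 1 in TgAD replicate 1 and 8 in TgAD replicate 2, so that only TgAD replicate 2 lay above the floor. It did not pass the filter on low counts and was not tested. Scaled by TMM-adjusted library sizes, the ratio of TgAD to WT over the summed reads was 3.50, with an exact 95% interval from 0.724 to 33.3 that covers counting error only. The passenger arms of the same hairpins had far more, summing to 202 and 263 reads in WT and to 351 and 518 in TgAD libraries. In these counts the 3p arms made up 99.6% ± 0.0805 of the miR-135a reads in WT and 99.1% ± 0.875 in TgAD neurons (SD, n = 2 each), and miR-135a-5p made up between 0.00910% and 0.0677% of the 5p reads of the family. TgAD minus WT was -0.47 percentage points for the first share (two-sided exact permutation test, n = 2 each, p = 1) and 0.021 for the second (two-sided exact permutation test, n = 2 each, p = 1). The smallest p that 2 against 2 libraries allow is 0.333, so these tests could not have passed. Both differences changed sign without TgAD replicate 2, to 0.15 and -0.0080.

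How reads with several placements were counted is not given in the sources used here. Of 53 listed miRNA with 2 or more loci in the RefSeq table, 30 had 0 reads in all 4 libraries, among them both arms of miR-9, which is abundant in cortex. Of 1622 miRNA with 1 locus, 646 had 0 reads in all 4 libraries and 195 had at least 1000 reads in total. Where the loci shared at most 24 bases, a length set after seeing miR-135a-5p, 8 of 12 miRNA had at least 1000 reads over the 4 libraries. Where they shared more, 1 of 38 did, and 27 had 0 reads. miR-7a-5p, whose loci also share 24 bases, had 2994 reads against 11 of miR-135a-5p. The part of shared sequence in the low count of miR-135a-5p was not tested. The 3p arms of miR-135a differ between the loci and are described per locus below.

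**Figure D1:**
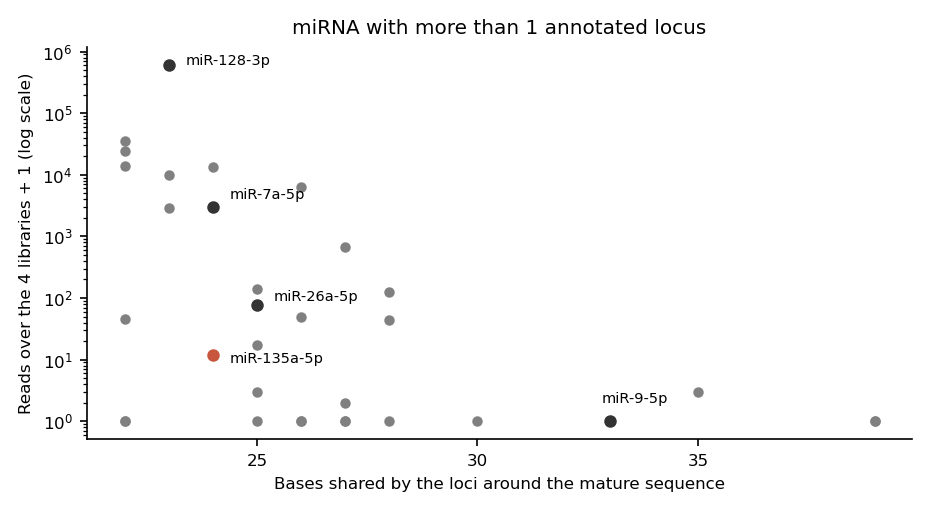
Reads summed over the 4 libraries (plus 1, log scale) against the number of bases that the loci share around the mature sequence, for the 35 miRNA with more than 1 locus and a shared run of at most 40 bases (15 longer runs and 3 miRNA without a comparable run are not drawn). miR-135a-5p, in red, shares 24 bases and has 11 reads, while miR-128-3p at 23 bases has 610027 reads and miR-9-5p at 33 bases has 0.

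miR-135b-5p, the guide strand of miR-135b, was the most abundant member, and it was higher in TgAD neurons. The 2 WT libraries held 5188 and 6675 of its reads and the 2 TgAD libraries 10993 and 11810, which corresponds to 2208 and 2293 CPM in WT and 4006 and 2937 CPM in TgAD neurons. In these TMM-scaled values both TgAD libraries lay above both WT libraries, and the TgAD libraries differed more from each other than the WT libraries did. That separation rests on the scaling. As a share of all reads the family, mostly miR-135b-5p, took 0.269% and 0.259% in WT and 0.419% and 0.264% in TgAD libraries. By that measure TgAD replicate 2 lay between the WT libraries. Such shares also depend on the other miRNA of a library. The most abundant miRNA alone took 15.8% and 16.7% of reads in WT and 27.0% and 31.8% in TgAD libraries. The part of this difference in the share of the family was not tested. By reads miR-135b-5p was the 49th most abundant miRNA in both WT libraries and the 27th and 43rd in the TgAD libraries. Mean levels were 2250.3 ± 59.7 CPM (WT) and 3472 ± 756 CPM (TgAD; SD, n = 2 each), and the log2 fold change was 0.63 ± 0.22 (standard error, as for every fold change below; edgeR, Benjamini-Hochberg adjusted p = 0.0856). This passed the study's cutoffs, a log2 fold change over 0.6 in size with an adjusted p under 0.1, by a small margin. The call was lost without WT replicate 1, where the log2 fold change was 0.60 (edgeR, Benjamini-Hochberg adjusted p = 0.199), and without WT replicate 2, where it was 0.65 (edgeR, Benjamini-Hochberg adjusted p = 0.152). With no filter on low counts it was 0.59 (edgeR, Benjamini-Hochberg adjusted p = 0.115). Without TgAD replicate 1 the log2 fold change was 0.30 (edgeR, Benjamini-Hochberg adjusted p = 0.324), and with total counts as library size it was 0.38 (edgeR, Benjamini-Hochberg adjusted p = 0.335). Under the column names of the normalized table it turned to -0.30 (edgeR, Benjamini-Hochberg adjusted p = 0.853). In bulk RNA a change in the number of cells that express a miRNA cannot be told apart from a change in its amount per cell.

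miR-135b-3p, the passenger strand of the same hairpin, did not pass. Its counts were 181 and 191 reads in WT and 216 and 353 in TgAD libraries. After scaling these were 77.0 and 65.6 CPM in WT and 78.7 and 87.8 CPM in TgAD neurons. In these scaled values the groups did not overlap but nearly touched. As a share of all reads in a library, miR-135b-3p overlapped between the genotypes. Its log2 fold change was 0.23 ± 0.23 (edgeR, Benjamini-Hochberg adjusted p = 0.505), and with total counts as library size it was -0.047. The 3p arm made up 3.37% and 2.78% of the miR-135b reads in the WT libraries, with exact 95% binomial intervals of 2.90% to 3.89% and 2.41% to 3.20%. In the TgAD libraries it made up 1.93% (1.68% to 2.20%) and 2.90% (2.61% to 3.22%). TgAD replicate 1 was the lowest of the 4, and TgAD replicate 2 lay between the WT libraries. The mean share was 3.08% ± 0.417 in WT and 2.41% ± 0.690 in TgAD neurons (SD, n = 2 each), and TgAD minus WT was -0.66 percentage points, within the spread between replicates (two-sided exact permutation test, n = 2 each, p = 0.667).

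The passenger arms of miR-135a tell its loci apart. miR-135a-1-3p, from chromosome 9, was counted 161 and 199 times in WT and 313 and 401 times in TgAD libraries. It stood at 68.5 and 68.3 CPM in WT against 114 and 99.7 CPM in TgAD neurons, with means of 68.4 ± 0.126 and 107 ± 10.2 CPM (SD, n = 2 each), and the genotypes did not overlap. The log2 fold change, 0.64 ± 0.22, passed the cutoffs (edgeR, Benjamini-Hochberg adjusted p = 0.0785), again by a small margin. The call was lost with DESeq2 (adjusted p = 0.143), with no filter on low counts (edgeR, Benjamini-Hochberg adjusted p = 0.191) and with at least 10 reads in every library (edgeR, Benjamini-Hochberg adjusted p = 0.111). With 1 library left out it lay between 0.46 and 0.74, and its adjusted p (edgeR, Benjamini-Hochberg) was 0.336 without WT replicate 1, 0.334 without WT replicate 2, 0.262 without TgAD replicate 1 and 0.110 without TgAD replicate 2. With total counts as library size it was 0.39 and no longer passed (edgeR, Benjamini-Hochberg adjusted p = 0.413). A correction of each library for the GC content of the mature miRNA, which is 59.1% for this arm, left 0.40 (edgeR, Benjamini-Hochberg adjusted p = 0.260). Under the column names of the normalized table it was 0.38 (edgeR, Benjamini-Hochberg adjusted p = 0.825).

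miR-135a-2-3p, from the Rmst intron on chromosome 10, was the least abundant arm that was tested. Its reads numbered 41 and 64 in WT and 38 and 117 in TgAD libraries, or 17.5 and 22.0 CPM in WT and 13.8 and 29.1 CPM in TgAD neurons. The TgAD libraries were the lowest and the highest of the 4. Its log2 fold change was 0.14 ± 0.41 (edgeR, Benjamini-Hochberg adjusted p = 0.834). Its direction turned with the library left out, from -0.51 without TgAD replicate 2 to 0.47 without TgAD replicate 1, and with total counts as library size it was -0.16.

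miR-135a-1-3p was the larger part of the miR-135a passenger reads in every library. It made up 79.7% and 75.7% of them in the WT libraries, with exact 95% binomial intervals of 73.5% to 85.0% and 70.0% to 80.7%. In the TgAD libraries it made up 89.2% (85.4% to 92.2%) and 77.4% (73.6% to 80.9%). TgAD replicate 1 stood above the other libraries, and TgAD replicate 2 lay between the WT libraries. The mean share was 77.7% ± 2.85 in WT and 83.3% ± 8.32 in TgAD neurons (SD, n = 2 each), and TgAD minus WT was 5.61 percentage points, within the spread between replicates (two-sided exact permutation test, n = 2 each, p = 0.667). Without TgAD replicate 1 the difference was -0.27.

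**Figure D2:**
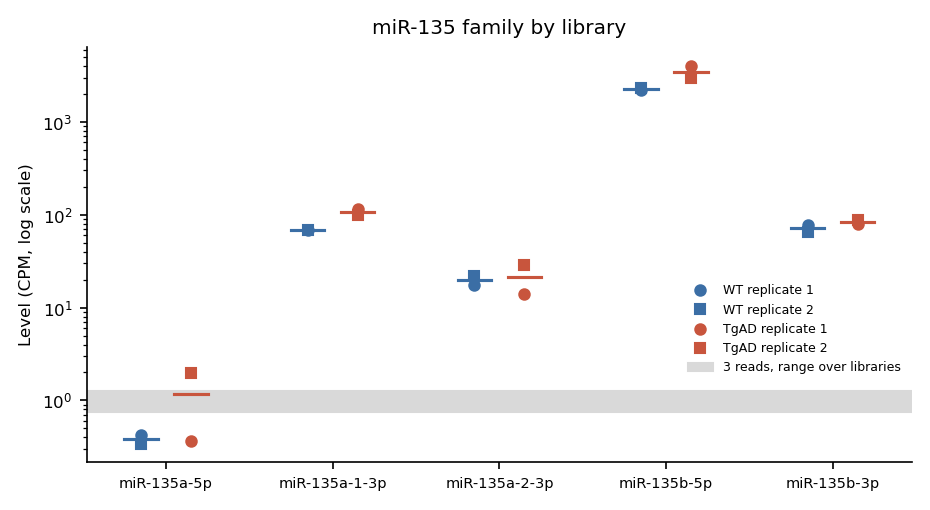
Level of each member (CPM after TMM scaling, log scale) in the 2 WT and 2 TgAD libraries, with a bar at the mean of each genotype and a gray band at the level of 3 reads. miR-135b-5p is the most abundant member and miR-135a-5p lies below the band in 3 of 4 libraries, and the TgAD libraries lie above the WT libraries for miR-135b-5p, miR-135a-1-3p and, narrowly, miR-135b-3p.

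**Figure D3:**
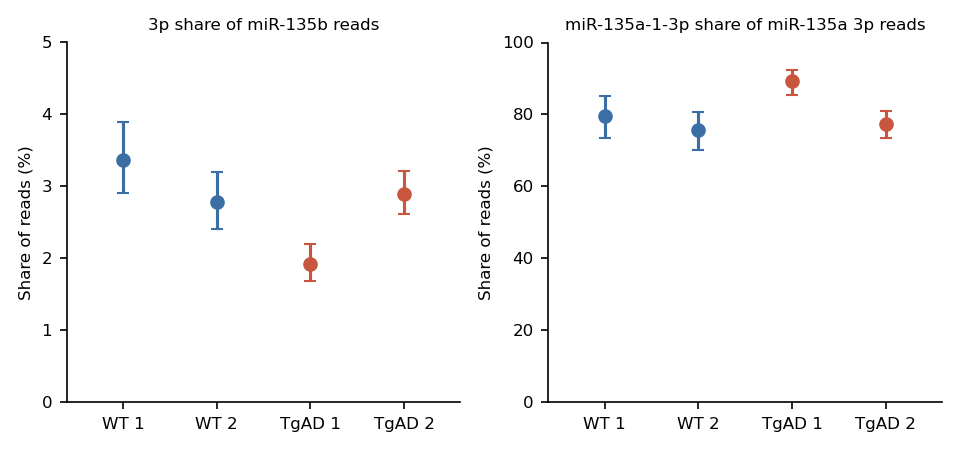
Share of the 3p arm in the miR-135b reads and share of miR-135a-1-3p in the miR-135a 3p reads, in percent, for each library, with exact 95% binomial intervals that cover counting error only. TgAD replicate 1 has the lowest 3p share, 1.93%, and the highest miR-135a-1-3p share, 89.2%.

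Of the 5 members, 4 passed the filter on low counts, and 2 of these 4, miR-135b-5p and miR-135a-1-3p, were called higher in TgAD neurons. Among all 496 tested miRNA 15.7% were called higher and 33.1% were called in either direction, and the 78 higher and 86 lower calls became 43 and 122 when total counts set the library size. In CPM after TMM scaling both TgAD libraries lay above both WT libraries for 3 of the 4 members, against 30.6% of all tested miRNA. That count of members rests on the scaling too. As shares of all reads in a library, miR-135b-5p and miR-135b-3p overlapped between the genotypes, and only miR-135a-1-3p stayed apart. The value for all tested miRNA was not worked out on such shares, so the 2 figures do not show an excess in the family. The median log2 fold change of the 4 tested members was 0.43, beside 0.032 for all tested miRNA. In order of log2 fold change, miR-135a-1-3p and miR-135b-5p ranked 101st and 108th of the 496, miR-135b-3p 191st and miR-135a-2-3p 221st. At the stringent cutoffs, a log2 fold change over 1 in size with an adjusted p under 0.01, 1.41% of all tested miRNA were higher in TgAD neurons and 0 of the 4 members were, by edgeR. The unadjusted p from edgeR was 0.0245 for miR-135a-1-3p, 0.0278 for miR-135b-5p, 0.360 for miR-135b-3p and 0.745 for miR-135a-2-3p.

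**Figure D4:**
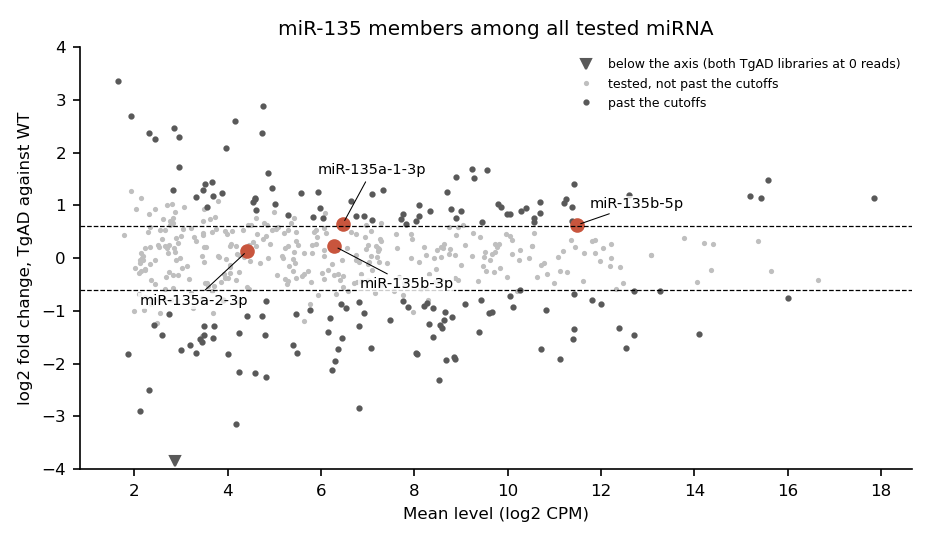
log2 fold change of TgAD against WT against the mean level (log2 CPM) for the 496 tested miRNA, with the 4 tested members in red and dashed lines at 0.6 in size; the triangle stands for 1 miRNA below the axis. miR-135b-5p (0.63) and miR-135a-1-3p (0.64) lie just above the upper line, miR-135b-3p (0.23) and miR-135a-2-3p (0.14) below it.

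**Figure D5:**
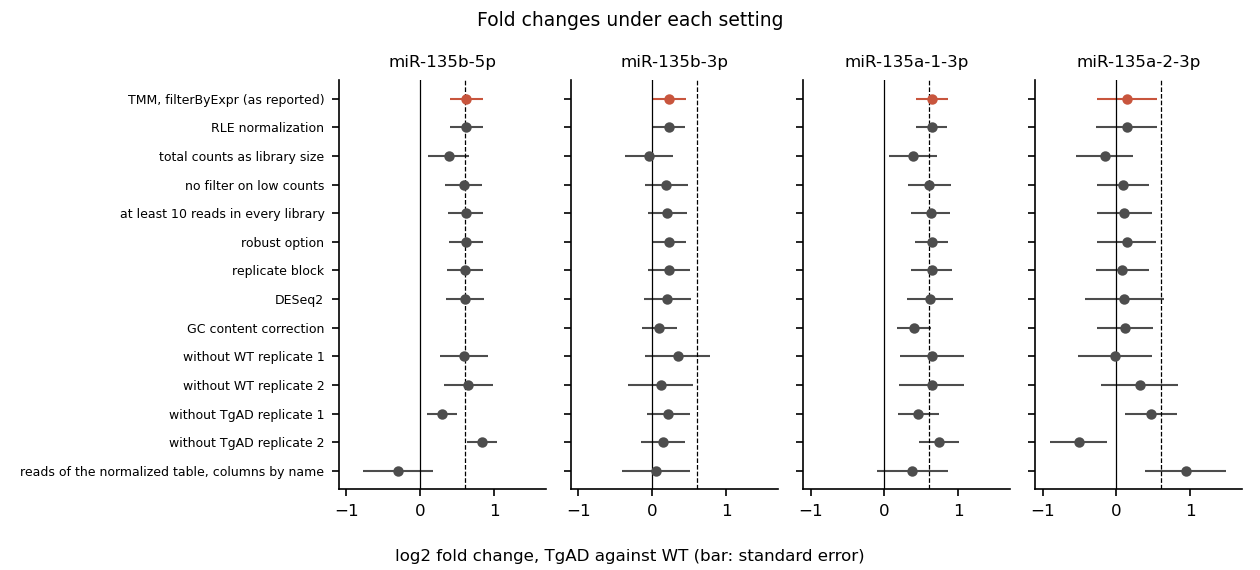
log2 fold change of TgAD against WT with its standard error for the 4 tested members under each setting of the analysis, with lines at 0 and, dashed, at 0.6; miR-135b-5p has no value with the correction for GC content. miR-135b-5p and miR-135a-1-3p stay above 0 in every setting of the count tables, between 0.30 and 0.83 and between 0.39 and 0.74, while miR-135b-5p falls to -0.30 under the column names of the normalized table.

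The pattern of miR-135b-5p over the 4 libraries was compared with that of every other tested miRNA by the root mean square difference of their centered log2 CPM. The 3 most similar were miR-138-1-3p, miR-3099-3p and miR-666-5p, at differences of 0.0615, 0.0706 and 0.0863, beside a median of 0.468. Since they were picked for this likeness, their fold changes are not separate evidence. miR-138-1-3p had only 19 to 42 reads per library and was not called, at 0.70 ± 0.36 (edgeR, Benjamini-Hochberg adjusted p = 0.215). miR-666-5p was not called either, at 0.59 ± 0.20 (edgeR, Benjamini-Hochberg adjusted p = 0.0802), under the cutoff of 0.6. miR-3099-3p, counted 488 and 567 times in WT and 1009 and 1146 times in TgAD libraries, was called higher, at a log2 fold change of 0.70 ± 0.21 (edgeR, Benjamini-Hochberg adjusted p = 0.0570). Within the family, miR-135a-1-3p from another chromosome was the 4th of 495 in similarity to miR-135b-5p, at 0.0935. The opposite arm of its own hairpin, miR-135b-3p, was the 101st at 0.304, and miR-135a-2-3p the 335th at 0.605. These similarities describe 4 libraries and carry no test.

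The miRNA next to the miR-135a loci were not called. let-7g is encoded 24626 bases from Mir135a-1 on the same strand, and miR-1251 lies 64954 bases from Mir135a-2 on the same strand. let-7g-5p, a guide strand of the let-7 family that promotes differentiation, came to a log2 fold change of -0.24 ± 0.27 (edgeR, Benjamini-Hochberg adjusted p = 0.551), and with the correction for GC content it was 0.42. With 1 library left out it lay between -0.57 (without TgAD replicate 2) and -0.050 (without TgAD replicate 1). let-7g-3p, its passenger, came to -0.49 ± 0.47 (edgeR, Benjamini-Hochberg adjusted p = 0.481). miR-1251-5p was counted 95 and 67 times in WT and 90 and 234 times in TgAD libraries, with TgAD replicate 2 the highest of the 4 as for miR-135a-2-3p. The lowest library differed, with WT replicate 2 for miR-1251-5p (23.0 CPM) and TgAD replicate 1 for miR-135a-2-3p (13.8 CPM). miR-1251-5p came to 0.54 ± 0.40 (edgeR, Benjamini-Hochberg adjusted p = 0.374), and to between 0.060 without TgAD replicate 2 and 0.99 without WT replicate 1. miR-1251-3p had at most 2 reads in a library and was not tested.

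Of the 4 other miRNA listed as linked to the serotonin system, most were lower in TgAD neurons. The list was chosen with earlier results of these data known, and miR-16-5p and miR-15a-5p in it share a seed. Its counts and median are therefore not separate evidence. Of 4 listed and tested, 3 were lower, 0 were higher and 1 did not pass, and their median log2 fold change was -1.31 beside 0.032 for all tested miRNA, of which 17.3% were called lower. miR-16-5p, which is known to repress the serotonin transporter that miR-135a also represses, went from 408 ± 7.30 in WT down to 117 ± 54.7 CPM (SD, n = 2 each; log2 fold change -1.80; edgeR, Benjamini-Hochberg adjusted p = 0.0175). miR-15a-5p, which has the seed of miR-16, went from 617 ± 75.2 down to 124 ± 48.4 CPM (SD, n = 2 each; log2 fold change -2.32; edgeR, Benjamini-Hochberg adjusted p = 0.00934). miR-15b-5p, placed in the progenitor list below, has this seed too but went the other way. Its TgAD libraries stood at 268 and 293 CPM, above the 175 and 232 CPM of WT. At a log2 fold change of 0.46 ± 0.22 it was not called (edgeR, Benjamini-Hochberg adjusted p = 0.184). miR-96-5p, known to repress the receptor Htr1b, went from 274 ± 37.6 down to 156 ± 33.8 CPM (SD, n = 2 each; log2 fold change -0.81; edgeR, Benjamini-Hochberg adjusted p = 0.0522), a call lost without WT replicate 1 (-0.66; edgeR, Benjamini-Hochberg adjusted p = 0.230) and with the correction for GC content (-0.30; edgeR, Benjamini-Hochberg adjusted p = 0.443). miR-26a-5p came to -0.32 ± 0.36 (edgeR, Benjamini-Hochberg adjusted p = 0.557), and it is encoded at 2 loci that share 25 bases and had only 17 to 22 reads per library. miR-16-5p is encoded at 2 loci as well, which share 23 bases.

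The listed miRNA known from cortical progenitors and their differentiation were called in both directions, at counts near the shares of all tested miRNA. This list too was chosen with earlier results of these data known. Of 17 listed, 14 were tested, with 3 higher, 3 lower and 8 that did not pass, beside 15.7% higher and 17.3% lower among all tested miRNA. Their median log2 fold change was -0.35, and that of all tested miRNA 0.032. miR-92a-3p, of the cluster that promotes progenitor proliferation, rose from 2257 ± 15.0 to 3436 ± 2.60 CPM (SD, n = 2 each), a level and a log2 fold change, 0.61, close to those of miR-135b-5p (edgeR, Benjamini-Hochberg adjusted p = 0.0530). It lost its call in 8 of 12 alternative settings. miR-125b-5p and miR-128-3p, both linked to neuronal differentiation, rose with log2 fold changes of 1.07 and 1.49. miR-92a-3p, miR-125b-5p and miR-128-3p are each encoded at 2 loci, so the unknown handling of reads with several placements applies to their counts too. miR-137-3p, known to regulate neuronal maturation, miR-184-3p, which promotes the proliferation of neural stem cells, and miR-449a-5p, which represses cell cycle genes, fell with log2 fold changes of -1.53, -2.16 and -1.13, the last not called without WT replicate 1 (edgeR, Benjamini-Hochberg adjusted p = 0.114). With the correction for GC content miR-137-3p came to -0.78 (edgeR, Benjamini-Hochberg adjusted p = 0.0561). In the normalized table, taken by column name, no list member was called by edgeR. The 3 that were not tested were miR-9-5p and miR-9-3p, with 0 reads in every library, and miR-124-3p with at most 7 reads.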

How the data were processed

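Small RNA libraries of WT and TgAD cortical neurons (2 each) were analyzed. The authors mapped adapter-trimmed reads to GRCm38 with Bowtie2 without mismatch, ran HTSeq-count with the mature miRNA of miRBase 22.1, and deposited raw counts, 1 table per library. They also deposited a table of counts divided by size factors, a signal that recovered whole reads for 100% of values (within 0.001 of a read). It was used only for comparison with the count tables and in 1 alternative, where edgeR called 0 of 480 tested miRNA (54 had an unadjusted p under 0.05).

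Counts were analyzed here with edgeR 4.0.16 (limma 3.58.1, R 4.3.3): TMM, filterByExpr, quasi-likelihood test with genotype as the only factor, Benjamini-Hochberg adjustment over the 496 tested miRNA. The standard error is the log2 fold change divided by the square root of F. log2 CPM used a prior count of 2. Intervals of shares are exact binomial (Clopper-Pearson). Sequences came from RefSeq and loci from GENCODE M21. The alternatives are RLE, total counts, other filters, DESeq2 1.42.0, the robust option, the replicate block, a GC correction (local regression, span 0.75) and each library left out. Figures were made with matplotlib 3.10.9.

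The members and lists were chosen with earlier results of these data known. The text names the 5 members, miRNA of the same seed, locus neighbors, called members of the lists and the 3 miRNA most similar to miR-135b-5p. miRNA outside this rule (miR-451a, miR-7a-5p, miR-124-3p, miR-138-5p, miR-218-5p, miR-129-5p, miR-219a-5p, miR-15b-5p, miR-26a-5p and both arms of miR-9) were named after their values were seen. Replicates are cultures of single embryos. Where a genotype is left with 1 library, it is assumed to vary like the other genotype.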

Additional observations from a re-analysis of the deposited data

Results flagged for a closer look

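The column TR_2 of the normalized table, which equals no count table, holds reads that no comparison of the genotypes by sample label uses. Of its 1926952 reads, 2786 were on miR-135b-5p, 97 on miR-135b-3p, 182 on miR-135a-1-3p and 41 on miR-135a-2-3p, all above the 3 reads that a count of 0 allows, and 0 were on miR-135a-5p. The 3p arm made up 3.36% of its miR-135b reads and miR-135a-1-3p 81.6% of its miR-135a 3p reads. The genotype of this library was not established here.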

How the results depend on the processing

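2 members were called in the analysis as reported. Of these, 0 were called with no filter on low counts, when total counts set the library size, with the correction for GC content (in which miR-135b-5p has no value) and under the names of the normalized table, an alternative chosen after seeing the data. 1 was called with at least 10 reads in every library and with DESeq2, and between 0 and 1 without 1 library. miR-135b-5p kept its call in 6 of 11 settings and miR-135a-1-3p in 3 of 12, counting those of the count tables. Total counts lowered the median of all tested miRNA to -0.23, turned miR-135b-3p to -0.047 and miR-135a-2-3p to -0.16, and gave 43 higher and 122 lower calls in place of 78 and 86. Without 1 library miR-135a-2-3p lay between -0.51 and 0.47, and it was -0.017 without WT replicate 1. let-7g-5p was 0.42 with the correction for GC content, and miR-135b-5p was -0.30 under the names of the normalized table. In the fixed lists 4 serotonin, 14 progenitor and 3 neighbor miRNA were tested. Of these, 9 were called, beside 33.1% of all tested miRNA, in lists chosen with earlier results of these data known. Between 8 and 11 were called in the settings of the count tables, and 0 under the names of the normalized table, where 0 of all miRNA were called. The labels do not say whether same-numbered libraries share a litter. Such libraries deviated together only weakly (r = 0.22 across 496 miRNA), which cannot settle it. With the replicate block 2 members were called, miR-135b-5p with an adjusted p of 0.0403 and miR-135a-1-3p with 0.0626 from edgeR's quasi-likelihood test, and 188 miRNA in all. The differences in shares turned with 1 TgAD library left out: without replicate 2 the miR-135a share of the 5p reads gave -0.0080 percentage points (range without 1 library -0.0080 to 0.051) and the 3p share of miR-135a 0.15 (-1.09 to 0.15), and without replicate 1 the miR-135a-1-3p share gave -0.27 (-0.27 to 11.5). The 3p share of miR-135b stayed below 0 (-1.15 to -0.17). The cause of these moves was not tested. With 2 libraries per genotype, counts under the floor and unknown handling of reads with several placements limit miR-135a-5p most.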
